A study of Mus musculus with 20 samples.

Results

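The entry of mouse spermatocytes into meiotic prophase was examined by setting sorted leptotene/zygotene cells against sorted pre-leptotene cells. Of the 20 arrays in the series, 6 were used for this comparison, 3 of leptotene/zygotene cells and 3 of pre-leptotene cells, chosen by the meiotic fraction in their labels. Both fractions came from the testes of male C57BL/6 x DBA/2J F1 mice aged 10 to 16 weeks, with no treatment or genetic change given in the labels, and were separated by FACS on the DNA dye Hoechst. Each array held RNA from a pool of several sorts, so it stands for a mixture of animals, and leptonema and zygonema were not separated from each other. In such pools, a lower signal from fewer cells of one type cannot be told apart from less RNA per cell. The remaining 14 arrays covered spermatogonia, early-, mid- and late-pachytene spermatocytes, diplotene spermatocytes and round spermatids, and gave the levels before and after this step.

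Pre-leptotene cells are the spermatocytes that carry out the last DNA replication before meiosis. In leptonema the replicated chromosomes are organised along a protein axis and SPO11 cuts the DNA, and in zygonema homologous chromosomes begin to be joined by the synaptonemal complex while recombinases carry out strand exchange. The flagellum of the sperm is assembled much later, in spermatids, around an axoneme of microtubules that carries dynein arms, radial spokes and a central pair, and many of its genes are already transcribed in spermatocytes. Transcription factors of the RFX family, which bind an element called the X-box, and MYBL1 are known regulators of ciliary and meiotic genes in these cells.

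All levels are log2 values of the GC-RMA signal, a background-corrected and normalised probe signal, and each change is the leptotene/zygotene mean minus the pre-leptotene mean on that scale. A probe set was tested when its log2 signal reached 5 in at least 2 of the 6 arrays, and was said to have risen or fallen when its limma p, adjusted over all 18782 probe sets tested, was under 0.05. On this basis 457 probe sets rose in leptotene/zygotene cells (2.43% of those tested) and 45 fell (0.240%). The rises had changes of 0.84 to 4.30 with a median of 2.37 and covered 380 named genes, whereas the falls had changes of -2.75 to -1.10 with a median of -1.57 and covered 30 named genes. Of the probe sets that rose, 187 of 457 (40.9%) had a pre-leptotene mean under log2 5. Most of those that fell became very dim, with 30 of 45 (66.7%) under log2 5 in leptotene/zygotene cells. With 1 probe set per gene, that of highest mean, 327 of 10344 genes rose (3.16%) and 13 fell (0.126%), and 614 rose and 42 fell with the replicate number as a block.

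Arrays varied within a fraction. Over the probe sets tested, Pearson correlations ran between 0.935 and 0.950 among pre-leptotene arrays and between 0.927 and 0.942 among leptotene/zygotene arrays. Between the fractions they ran between 0.855 and 0.957. The highest, that of the replicates numbered 1, was above all those within a fraction, and the lowest belonged to leptotene/zygotene replicate 3. This array had the highest leptotene/zygotene signal in 404 of the 457 probe sets that rose (88.4%), and pre-leptotene replicate 2 had the highest pre-leptotene signal in 347 (75.9%). The median level of the risen probe sets was 7.11, 7.55 and 8.76 in leptotene/zygotene replicates 1 to 3, against 4.89, 6.04 and 5.47 in pre-leptotene replicates 1 to 3. All 457 were higher in leptotene/zygotene cells in each of the 3 same-numbered pairs. In 454 of them (99.3%) the fractions did not overlap, so any pairing gives the same, and they were called from these same arrays. The number of calls rested on single arrays. It was 35 in place of 502 without leptotene/zygotene replicate 3, and 276 without leptotene/zygotene replicate 2. When pre-leptotene replicate 1 was left out it was 65, and 77 without replicate 3 of that fraction. Same-numbered arrays deviated together, and with the replicate number as a block 1025 probe sets were called, 501 of the 502 among them. With the 6 arrays fitted alone, limma called 0 probe sets and 2453 had an unadjusted p under 0.05.

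Among the largest rises were genes for proteins of the sperm surface, the acrosome, lipid and glucose metabolism and the axoneme. Cers3, a ceramide synthase that makes very long-chain ceramides, had log2 signals of 10.18, 11.31 and 10.16 in leptotene/zygotene cells, against 4.20, 8.65 and 5.92 in pre-leptotene cells. Its 3 leptotene/zygotene arrays stood close together and above all pre-leptotene arrays, which were widely spread, and the change was 4.30 ± 0.86 (SE, adjusted p = 0.0187). Adam2, a subunit of the sperm surface protein fertilin, had 10.19, 11.15 and 11.74 in leptotene/zygotene cells, against 4.66, 9.36 and 7.31 in pre-leptotene cells, a change of 3.92 ± 0.87 (SE, adjusted p = 0.029). Clgn, the endoplasmic reticulum chaperone calmegin that fertilin needs to mature, had 9.94, 11.37 and 10.34 in leptotene/zygotene cells, against 4.95, 8.91 and 6.34 in pre-leptotene cells. Adam2 and Clgn were thus low in the same pre-leptotene array, replicate 1, and high in the same one, replicate 2. The change of this Clgn probe set was 3.81 ± 0.74 (SE, adjusted p = 0.0176), while the brighter Clgn probe set had a change of 2.29 and did not pass the test (adjusted p = 0.0528, and 0.0059 with the replicate block).

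Slc2a3, the glucose transporter GLUT3, was bright in both fractions, with 12.46, 13.03 and 13.53 in leptotene/zygotene cells, against 8.41, 10.84 and 9.10 in pre-leptotene cells. The groups were separated by a wide gap and the change was 3.55 ± 0.57 (SE, adjusted p = 0.00849). Spink2, an inhibitor of acrosomal proteases, reached 11.38, 11.41 and 12.86 in leptotene/zygotene cells, against 7.85, 9.36 and 8.74 in pre-leptotene cells, and rose by 3.23 ± 0.50 (SE, adjusted p = 0.00849). The others of the 15 rises that were largest with values under log2 5 raised to 5 were Glipr1l2 (3.84), a member of the CAP protein family, Art3 (3.42), of the ADP-ribosyltransferase family, Pebp4 (3.41), AA467197 (3.52), the uncharacterised 1700029M20Rik (3.89), 1700102P08Rik (3.46) and 4930544G11Rik (3.25), and the flagellar and centriolar genes Zmynd10, Rsph1 and Cetn1 described below. None of the 15 overlapped between the fractions, which the choice of these genes required.

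**Figure D1:**
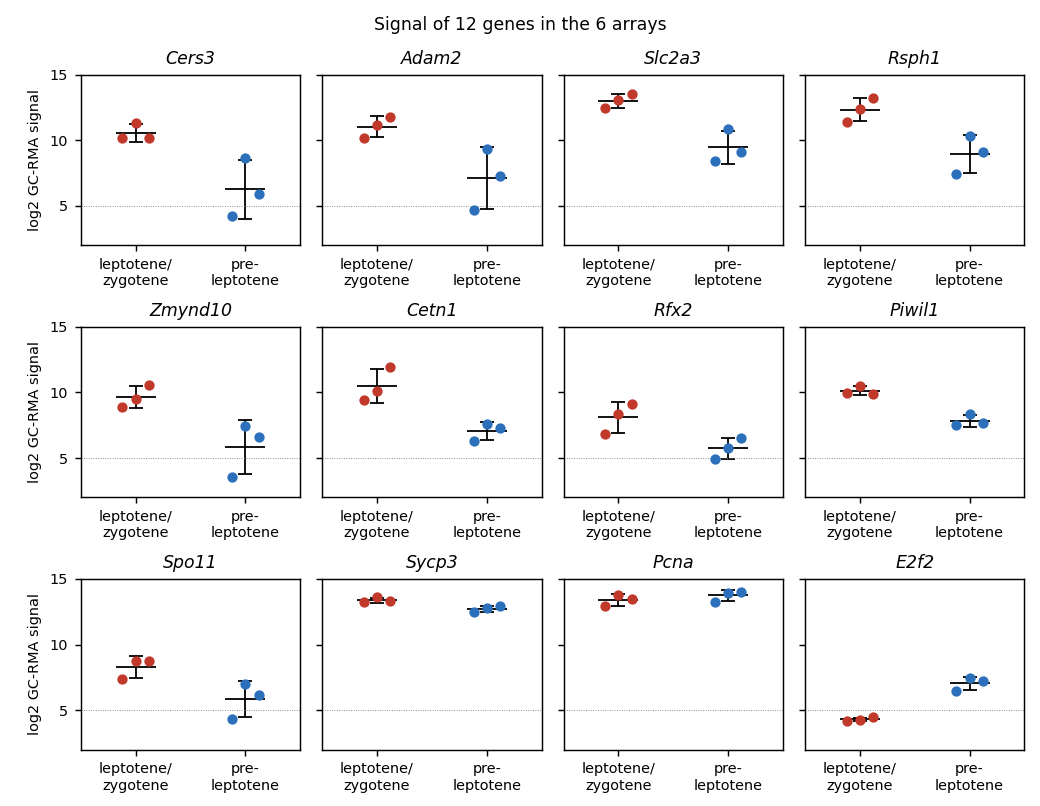
Log2 GC-RMA signal (vertical axis) of 12 genes in the 3 leptotene/zygotene arrays (red, left) and the 3 pre-leptotene arrays (blue, right), with replicates 1 to 3 running left to right, black bars at mean and SD, and a dotted line at log2 5. Cers3, Adam2 and Zmynd10 vary widely between pre-leptotene arrays, E2f2 stays under log2 5 in all leptotene/zygotene arrays, and Sycp3 and Pcna sit above 12 in both fractions.

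Of the gene groups examined, the flagellar genes held the most rises. Over the ciliogenesis regulators and the lists of axonemal, intraflagellar transport and centriolar genes, 139 genes were tested, of which 36 rose (25.9%, against 3.16% of all genes) and 0 fell. The median change was 1.02, against 0.02 over all genes, and 122 of the 139 were higher in leptotene/zygotene cells, against 5392 of all 10344. In 66 of them (47.5%) all 3 leptotene/zygotene arrays were above all 3 pre-leptotene arrays, and in 5 (3.60%) all were below, against 13.0% and 8.69% of all genes. With the replicate block 56 of the 139 rose (40.3%), against 614 of all 10344 genes. Without leptotene/zygotene replicate 3 only Cfap54 and Dnah7a were still called, leaving out pre-leptotene replicate 1 gave 3 calls and leaving out replicate 3 of that fraction gave 8.

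Structural parts of the axoneme held most of these rises. Of 49 listed genes of the radial spokes, the central pair and the tektins inside the microtubule doublets, 34 were tested, and 17 of these rose, with a median change of 2.46. Array projects, matched by equal signals, put pairs 1 and 3 each within a single project and pair 2 in different ones. A second numbering in the study's supplement gives no project to replicate 1 of either fraction and may not follow the replicate order of the labels. In pairs 1 and 3 the median difference was 2.61 and 3.63, and in pair 2 it was 1.31. Rsph1, a radial spoke head protein, had 11.41, 12.36 and 13.20 in leptotene/zygotene cells, against 7.40, 10.31 and 9.10 in pre-leptotene cells. Its groups did not overlap, and it rose by 3.39 ± 0.64 (SE, adjusted p = 0.0153). Cfap54, a central pair protein, had 5.92, 6.17 and 7.11 in leptotene/zygotene cells, against 2.29, 3.55 and 3.53 in pre-leptotene cells. All its pre-leptotene values lay under log2 5, and its change of 3.27 ± 0.40 had the lowest adjusted p of the genes named here, at 0.00248. Cfap65 rose by 3.49 ± 0.59 and Cfap52 by 3.40 ± 0.56 (SE, adjusted p = 0.00865 and 0.0086), and Cfap206, whose counterpart in Tetrahymena docks a radial spoke to the doublet, rose by 3.32 ± 0.67 (SE, adjusted p = 0.0192).

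The tektins were all higher in leptotene/zygotene cells but none passed the test. Tekt1 had 7.76, 8.68 and 10.18 in leptotene/zygotene cells, against 3.77, 7.83 and 6.36 in pre-leptotene cells, a change of 2.89 ± 0.82 (SE, adjusted p = 0.0779). Tekt3 had a change of 2.82 ± 0.74 (SE, adjusted p = 0.0547), and both were called with the replicate block, at adjusted p of 0.023 and 0.024. Tekt4 had a change of 2.87 ± 0.93 and Tekt2 of 1.48 ± 0.51 (SE, adjusted p = 0.135 and 0.173), and in Tekt1, Tekt2 and Tekt4 pre-leptotene replicate 2 was above leptotene/zygotene replicate 1. With the block, 26 of the 34 genes of this list rose, against 614 of all 10344 genes.

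Of 41 listed genes for axonemal dyneins and their assembly, 29 were tested and 14 rose (48.3%, against 3.16% of all genes). The median change was 2.04, with pair medians of 1.40, 1.02 and 3.07 for replicates 1 to 3. Zmynd10, needed to assemble dynein arms in the cytoplasm, had 8.88, 9.53 and 10.57 in leptotene/zygotene cells, against 3.53, 7.44 and 6.63 in pre-leptotene cells. It rose by 3.79 ± 0.76 (SE, adjusted p = 0.0192), with pre-leptotene replicate 1 far under the other arrays. The dynein heavy chain gene Dnah12 had 5.47, 6.96 and 8.71 in leptotene/zygotene cells, against 2.53, 4.89 and 3.85 in pre-leptotene cells, and rose by 3.29 ± 0.71 (SE, adjusted p = 0.0267, and 0.061 with values under log2 5 raised to 5). Dnah7a, for another heavy chain, had 5.78, 5.77 and 5.33 in leptotene/zygotene cells, against 2.61, 3.61 and 2.79 in pre-leptotene cells, and unlike most of these genes it was not highest in leptotene/zygotene replicate 3. The change of Dnah7a was 2.62 ± 0.40 (SE, adjusted p = 0.00849), from pre-leptotene levels all under log2 5. With values under log2 5 raised to 5, its change was 0.63 and it was no longer called (adjusted p = 0.192). Ccdc39, whose counterpart in Chlamydomonas is the ruler that spaces dyneins and spokes along the doublet, rose by 2.69 ± 0.53 and the assembly factor Dnaaf1 by 2.62 ± 0.63 (SE, adjusted p = 0.018 and 0.0402).

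The transport machinery and the centriole moved less. Of 36 tested genes of intraflagellar transport and ciliary trafficking, which carries cargo along the growing axoneme, 34 were higher in leptotene/zygotene cells. Of all 10344 genes 5392 were higher. In the list the median change was 0.53 and only Dync2li1 rose (2.78% of the list, against 3.16% of all genes). This count depends on the genes listed, as Ttc30a2, of the same complex and described below, rose but was not in the list. Dync2li1, a light intermediate chain of the transport dynein, had 6.35, 7.70 and 7.63 in leptotene/zygotene cells, against 4.56, 5.78 and 4.94 in pre-leptotene cells, with no overlap and a change of 2.13 ± 0.46 (SE, adjusted p = 0.0265). With the replicate block 7 of the 36 genes of this list rose, against 614 of all 10344 genes.

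Among 27 tested genes of the centriole, Cetn1 and Cetn4 rose (7.41%, against 3.16% of all genes), and the median change was 0.04. Cetn1, the centrin made mainly in testis, had 9.43, 10.09 and 11.92 in leptotene/zygotene cells, against 6.33, 7.63 and 7.29 in pre-leptotene cells, and rose by 3.40 ± 0.57 (SE, adjusted p = 0.00865). Cetn4 had 10.25, 10.36 and 12.09 in leptotene/zygotene cells, against 7.85, 9.53 and 8.77 in pre-leptotene cells, and rose by 2.18 ± 0.55 (SE, adjusted p = 0.0475). The other two centrins were bright in both fractions. Cetn3 averaged 12.16 ± 0.10 in leptotene/zygotene cells and 11.60 ± 0.19 in pre-leptotene cells (SD, n = 3 each), a change of 0.56 ± 0.24 with no overlap (SE, adjusted p = 0.335). Cetn2, a centrin expressed in most tissues, averaged 11.58 ± 0.26 in leptotene/zygotene cells and 11.53 ± 0.37 in pre-leptotene cells (SD, n = 3 each), with a change of 0.04 ± 0.44 whose sign turned under some settings (SE, adjusted p = 0.995).

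**Figure D2:**
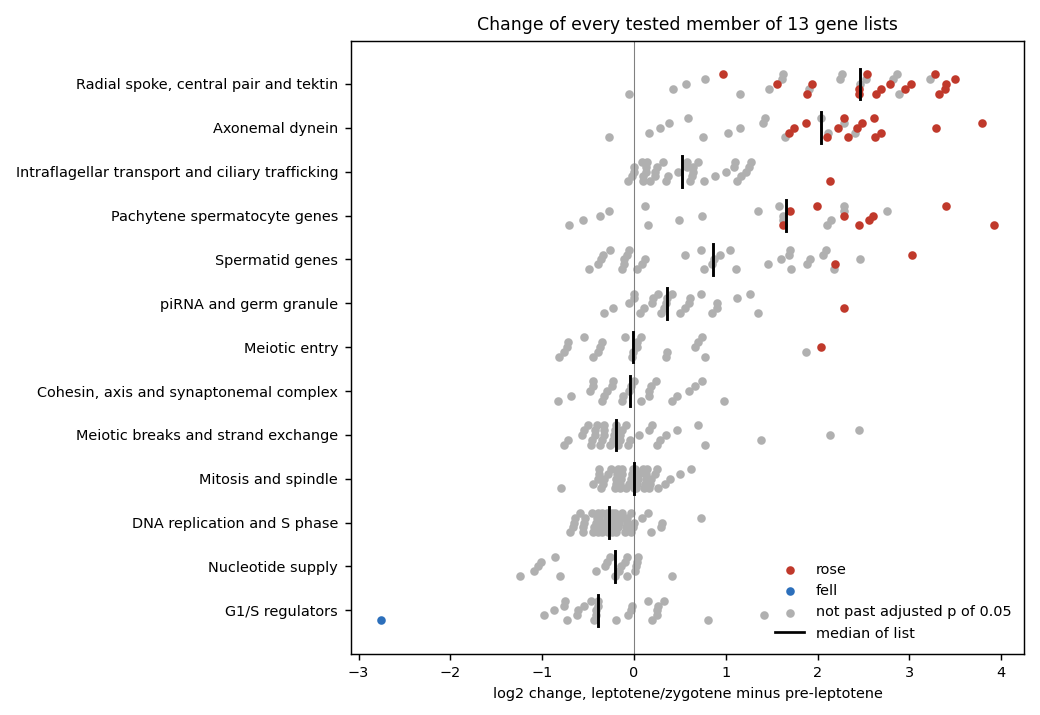
Change of every tested member (points) of 13 gene lists on the log2 scale, leptotene/zygotene minus pre-leptotene, with genes that rose in red, genes that fell in blue, the rest in grey and the median of each list as a black bar. The radial spoke and dynein lists centre on 2.46 and 2.04, while the mitosis, axis and meiotic entry lists centre near 0 and the lists of S-phase genes lie slightly to the left of 0 with E2f2 alone at -2.75.

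Of the regulators of ciliary genes, 13 were tested and 2 rose, Rfx4 and Rfx2 (15.4%, against 3.16% of all genes). Rfx2, required in mice for spermatid maturation, had 6.81, 8.39 and 9.11 in leptotene/zygotene cells, against 4.91, 5.77 and 6.51 in pre-leptotene cells. It differed by 2.37 ± 0.52 with no overlap (SE, adjusted p = 0.0276), and with the replicate block its adjusted p was 0.0068. Rfx4, of the same family, had 5.68, 6.21 and 6.66 in leptotene/zygotene cells, against 2.77, 3.76 and 3.26 in pre-leptotene cells, a rise of 2.92 ± 0.49 to a still low level (SE, adjusted p = 0.0086).

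Because RFX factors bind the X-box, the promoters of the genes that rose were searched for it on both strands, over the RefSeq windows of 250 bases before to 50 bases after the start. A match was found in 14 of the 260 risen genes with a promoter window (5.38%), against 122 of all 8522 tested genes with one (1.43%), and in 0 of 8 that fell. In the radial spoke, central pair and tektin list 5 of 29 promoters held a match (17.2%), in the dynein list 2 of 24 (8.33%), in the intraflagellar transport list 2 of 31 (6.45%), and in the centriole list and the ciliogenesis regulators 0 of 21 and 0 of 12. With the calls of the replicate block, a comparison chosen after seeing the data, the share was 23 of 491 risen genes (4.68%). A match is a description of the letters and was not shown to be a bound site.

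The 14 matches in risen genes lay close to the start, at distances of -30 to 15 bases with a median of -19.5, whereas the 130 matches in all tested genes ran between -248 and 36 with a median of -78. All 14 fell between -60 and 20, against 54 of the 130 (41.5%). The 130 include these 14, and this window was not set in the plan. Shown here are the 60 bases before the start of 5 risen genes whose match lay wholly within them, chosen for display after their values were seen. They are given 5′ to 3′ on the gene's strand from GRCm38.p6, with the X-box match in capitals.
Ttc30a2, chr2:75978180-75978239, minus strand: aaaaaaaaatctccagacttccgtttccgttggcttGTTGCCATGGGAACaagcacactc
Pifo, chr3:106001498-106001557, minus strand: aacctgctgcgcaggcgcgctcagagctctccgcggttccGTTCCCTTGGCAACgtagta
Hydin, chr8:110266917-110266976, plus strand: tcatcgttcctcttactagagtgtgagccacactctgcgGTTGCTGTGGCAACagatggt
Cfap45, chr1:172521070-172521129, plus strand: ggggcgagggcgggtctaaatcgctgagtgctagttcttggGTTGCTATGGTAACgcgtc
Morn4, chr19:42086371-42086430, minus strand: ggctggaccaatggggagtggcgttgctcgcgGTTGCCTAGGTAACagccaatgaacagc

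These 5 genes were low to intermediate in pre-leptotene cells and rose. Ttc30a2, of the intraflagellar transport complex and one of several near-identical mouse genes that its probes may not tell apart, had 8.60, 8.10 and 10.64 in leptotene/zygotene cells, against 5.38, 7.15 and 6.21 in pre-leptotene cells, a change of 2.86. Pifo, a regulator of primary cilium disassembly, had 8.17, 7.63 and 8.80 in leptotene/zygotene cells, against 5.18, 6.85 and 5.63 in pre-leptotene cells, a change of 2.31. Hydin, of the central pair, and Cfap45, inside the doublet, had changes of 1.89 and 2.70, from pre-leptotene means of 3.67 and 4.24. Morn4 averaged 8.53 ± 0.61 in leptotene/zygotene cells and 6.73 ± 0.48 in pre-leptotene cells (SD, n = 3 each). Their adjusted p lay between 0.0283 and 0.0382, and the groups of none of the 5 overlapped. With values under log2 5 raised to 5, Hydin (0.58, adjusted p = 0.501) and Cfap45 (1.72, adjusted p = 0.0803) were no longer called.

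**Figure D3:**
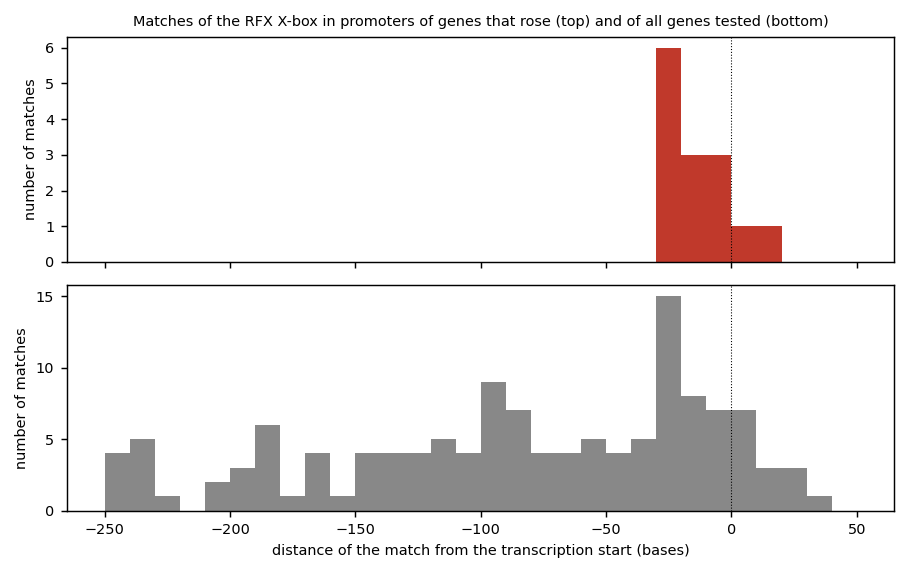
Number of X-box matches (vertical axes) by distance from the transcription start in bases (horizontal axis, bins of 10), for the genes that rose (red, top) and for all genes tested, the risen ones included (grey, bottom). The 14 matches of risen genes lie between -30 and 15, and those of all genes are spread over the window with their tallest bin just before the start.

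Genes known from pachytene spermatocytes rose alongside the axonemal genes. Of 26 such genes tested, 9 rose (34.6%, against 3.16% of all genes) with a median change of 1.66. Of 34 genes known from spermatids, 2 rose (5.88%), nearer the share of all genes, with a median of 0.86. Without overlap, 11 of these 34 were higher in leptotene/zygotene cells (32.4%, against 13.0% of all genes) and 0 were lower (against 8.69%). In the 60 genes of both lists together, 11 rose (18.3%) and 0 fell. The replicate block gave 23 rises (38.3%), against 614 of all 10344 genes. The calls rested on several arrays, with 1 of the 60 called without leptotene/zygotene replicate 3, 6 without leptotene/zygotene replicate 2, 2 when pre-leptotene replicate 1 was left out, 3 with replicate 3 of that fraction left out and 18 without leptotene/zygotene replicate 1.

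Piwil1, the PIWI protein loaded with pachytene piRNAs, had 9.92, 10.51 and 9.91 in leptotene/zygotene cells, against 7.50, 8.33 and 7.67 in pre-leptotene cells. It was among the most even genes within each fraction, rose by 2.28 ± 0.35 (SE, adjusted p = 0.00849), and was the only call of these lists to stay without leptotene/zygotene replicate 3. Ldhc, the lactate dehydrogenase of germ cells, had 13.03, 12.78 and 14.05 in leptotene/zygotene cells, against 10.19, 11.49 and 10.49 in pre-leptotene cells, and rose by 2.56 ± 0.43 (SE, adjusted p = 0.0086). Acr, which encodes the acrosomal protease acrosin, had 7.67, 8.35 and 10.11 in leptotene/zygotene cells, against 4.23, 6.40 and 5.30 in pre-leptotene cells, and rose by 3.40 ± 0.68 (SE, adjusted p = 0.019). Pdha2, an autosomal copy of the X-linked pyruvate dehydrogenase subunit, rose by 2.60 ± 0.63, and Meig1, needed to build the flagellum, by 2.45 ± 0.55 (SE, adjusted p = 0.0402 and 0.0306).

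The spermatid genes that rose were Dkkl1, an acrosomal protein, by 3.03 ± 0.71, and Papolb, a testis poly(A) polymerase, by 2.19 ± 0.56 (SE, adjusted p = 0.0353 and 0.0482). Akap4, a protein of the sperm fibrous sheath encoded on the X chromosome, averaged 10.21 ± 0.43 in leptotene/zygotene cells and 10.30 ± 0.53 in pre-leptotene cells (SD, n = 3 each), a difference of -0.08 ± 0.61 that turned sign under some settings (SE, adjusted p = 0.993). The mean level of the spermatid list was 9.03, 8.78 and 9.36 in leptotene/zygotene replicates 1 to 3, against 7.55, 9.10 and 7.80 in pre-leptotene replicates 1 to 3, and 9.96 in spermatogonia. Pre-leptotene replicate 2 was above leptotene/zygotene replicates 1 and 2, and in the second same-numbered pair the median change of this list was -0.34. The mean of the pachytene list was 8.78, 9.19 and 10.07 in leptotene/zygotene replicates 1 to 3, against 7.28, 8.35 and 7.82 in pre-leptotene replicates 1 to 3, so replicate 3 of leptotene/zygotene cells held the most of these later-stage transcripts. Their part in the rise of the axonemal genes was not tested.

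The genes of meiotic recombination and chromosome structure were called at a share near that of all genes. Over the lists of meiotic entry, the chromosome axis and synaptonemal complex, DNA breaks and strand exchange, crossovers and telomere attachment, 114 genes were tested, 2 rose (1.75%, against 3.16% of all genes), 0 fell, and the median change was -0.09. The arrays did not overlap in 13 genes higher in leptotene/zygotene cells (11.4%, against 13.0% of all genes) and in 24 lower ones (21.1%, against 8.69%). The 2 rises were Spdya and Hspa2. Spdya, the activator of CDK2 at telomeres, averaged 9.99 ± 0.60 in leptotene/zygotene cells and 7.96 ± 0.89 in pre-leptotene cells (SD, n = 3 each), with no overlap and a change of 2.04 ± 0.38 (SE, adjusted p = 0.0149). Hspa2, the spermatocyte heat shock protein that also stands in the pachytene list, had 10.99, 11.88 and 12.33 in leptotene/zygotene cells, against 9.43, 10.60 and 10.09 in pre-leptotene cells, a change of 1.70 ± 0.43 (SE, adjusted p = 0.0475). Neither was called without leptotene/zygotene replicate 3, or replicate 1 or 3 of the pre-leptotene arrays, when 0 of the 114 genes were, and 1 of the 114 was without leptotene/zygotene replicate 2.

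Spo11, which cuts the DNA to start recombination, had 7.36, 8.75 and 8.79 in leptotene/zygotene cells, against 4.34, 7.03 and 6.17 in pre-leptotene cells. Its groups did not overlap and the difference of 2.46 ± 0.76 was the largest in the meiotic lists, but it missed the threshold (SE, adjusted p = 0.108). It was called with the replicate block, at an adjusted p of 0.0042. So was Ccna1, the meiotic cyclin A1 (2.28 ± 0.70 SE, adjusted p = 0.109 without the block and 0.034 with it). The block thus gave 4 rises in the 114 meiotic genes (3.51%), against 614 of all 10344 genes. Sycp3, of the chromosome axis, was one of the brightest genes in both fractions, at 13.24, 13.61 and 13.30 in leptotene/zygotene cells, against 12.49, 12.76 and 12.92 in pre-leptotene cells, a difference of 0.66 ± 0.23 with no overlap (SE, adjusted p = 0.182).

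Several other meiotic genes were bright in both fractions. Stra8, the retinoic acid target that drives meiotic entry, had 12.54, 12.05 and 12.32 in leptotene/zygotene cells, against 11.84, 11.46 and 11.53 in pre-leptotene cells. Its groups did not overlap, but its spread in other fractions, which the fit shares, gave an SE of 0.89 for a difference of 0.69 (adjusted p = 0.89). Dmc1, the meiotic recombinase, averaged 9.04 ± 0.40 in leptotene/zygotene cells and 9.39 ± 0.54 in pre-leptotene cells (SD, n = 3 each), and its groups overlapped. Tex15, required for strand exchange, averaged 12.87 ± 0.16 in leptotene/zygotene cells and 13.10 ± 0.14 in pre-leptotene cells, and Trip13, which removes axis proteins on synapsis, averaged 12.59 ± 0.19 and 12.88 ± 0.10 in leptotene/zygotene and pre-leptotene cells (SD, n = 3 each). Neither passed the test (adjusted p = 0.869 and 0.882).

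The genes of DNA replication were lower in leptotene/zygotene cells by small amounts. In 102 tested genes of replication, nucleotide supply and the G1/S switch, 82 had a lower mean in leptotene/zygotene cells, against 4952 of all 10344. Of the 102, 30 were lower without overlap (29.4%, against 8.69% of all genes), but the median change was -0.28 and only E2f2 fell. With the second numbering of array projects as a block, whose replicate order may not be that of the labels, the median was -0.14. In the 54 replication genes alone, 47 were lower, 13 of them without overlap (24.1% of the list, against 8.69% of all genes). Of the 54, 0 passed the test, and the pair medians were -0.29, -0.11 and -0.40 for replicates 1 to 3. Pcna, the clamp of the replication fork, had 12.90, 13.77 and 13.49 in leptotene/zygotene cells, against 13.24, 13.96 and 14.02 in pre-leptotene cells. The groups overlapped and the difference was -0.35 ± 0.32 (SE, adjusted p = 0.807). Mcm7, of the replicative helicase, averaged 13.54 ± 0.02 in leptotene/zygotene cells and 13.74 ± 0.12 in pre-leptotene cells, and Slbp, which binds histone mRNA, averaged 12.66 ± 0.32 in leptotene/zygotene cells and 13.01 ± 0.32 in pre-leptotene cells (SD, n = 3 each). These transcripts were bright in both fractions.

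E2f2, a transcription factor that activates S-phase genes, had 4.18, 4.28 and 4.45 in leptotene/zygotene cells, against 6.50, 7.46 and 7.20 in pre-leptotene cells. It was the largest fall of the comparison, with a change of -2.75 ± 0.44 (SE, adjusted p = 0.00849), and was called in the fits over all arrays, with each block, scaling, floor and filter tried and without any 1 array, but not with the 6 arrays alone. Npat, the coactivator that switches on histone genes in S phase, was not in the lists. Its fallen probe set, which was chosen over all probe sets of the gene, fell by 2.50 ± 0.54 on the log2 scale (SE, adjusted p = 0.0265). It had 3.85, 3.66 and 3.31 in leptotene/zygotene cells, against 6.22, 6.70 and 5.40 in pre-leptotene cells. Both probe sets, of E2f2 and Npat, went below log2 5 in all leptotene/zygotene arrays, where the size of a change is poorly measured.

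Of the 27 tested G1/S regulators, 19 were lower in leptotene/zygotene cells, 9 of them without overlap, and 8 were higher, 1 of them without overlap. Some of the lower ones, which did not pass the test, are given here. Ccne2 and Ccne1, the cyclins E, had differences of -0.98 ± 0.49 and -0.75 ± 0.30 (SE, adjusted p = 0.443 and 0.261), and Cdc25a, the phosphatase that activates CDK2, of -0.55 ± 0.22 (SE, adjusted p = 0.265), although the groups overlapped in none of the 3. Tk1, which salvages thymidine, had 7.16, 7.10 and 7.02 in leptotene/zygotene cells, against 7.84, 8.31 and 8.27 in pre-leptotene cells, a difference of -1.05 ± 0.29 (SE, adjusted p = 0.0741). Mthfd1, of one-carbon metabolism, had 7.49, 7.13 and 6.83 in leptotene/zygotene cells, against 8.46, 8.13 and 7.90 in pre-leptotene cells, a difference of -1.01 ± 0.33 (SE, adjusted p = 0.128). With the replicate block Tk1 and Mthfd1 fell too, at adjusted p of 0.044 and 0.024, which made 3 falls. The 50 tested genes of mitosis and the spindle had a median change of 0.00, and 0 were called.

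E2F factors bind a short element, which was searched for in the promoters. The letters searched on both strands were TTTCCCGC, TTTGGCGC, TTTCGCGC and TTTGCCGC, and they were found in 17 of 43 replication genes with a promoter window (39.5%), in 8 of 22 G1/S genes (36.4%), in 1 of 20 genes of nucleotide supply and in 9 of 30 genes of breaks and strand exchange (30.0%), against 437 of all 8522 (5.13%). The share was 11 of 260 in risen genes (4.23%) and 1 of 8 in genes that fell (12.5%). The E2F element of Gins3, of the replication helicase, and of E2f3 is shown in capitals within the 60 bases before the start (GRCm38.p6, 5′ to 3′ on the gene's strand), both chosen for display.
Gins3, chr8:95633499-95633558, plus strand: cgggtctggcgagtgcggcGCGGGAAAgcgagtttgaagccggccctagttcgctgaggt
E2f3, chr13:29986064-29986123, minus strand: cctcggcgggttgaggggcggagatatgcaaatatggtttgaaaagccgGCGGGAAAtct

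Gins3 averaged 7.01 ± 0.33 in leptotene/zygotene cells and 7.40 ± 0.33 in pre-leptotene cells (SD, n = 3 each). E2f3 averaged 5.41 ± 0.96 in leptotene/zygotene cells and 6.29 ± 0.28 in pre-leptotene cells (SD, n = 3 each). Neither fell (adjusted p = 0.853 and 0.508). Of the other elements searched, the CCAAT box (CCAAT) was in 48.1% of risen promoters and 43.7% of all, the CHR element of mitotic genes (TTTGAA) in 14.2% of risen promoters and 13.8% of all, and the STRA8-binding element (CNCCTCAG) in 9.62% of risen promoters and 11.2% of all. The STRA8 element was in 5 of the 8 promoters of genes that fell, and in 6 of 31 (19.4%) when the calls came from the replicate block.

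The remaining named falls were of genes with varied functions. Named falls, Npat included, were chosen over all probe sets of a gene, so a brighter probe set of the gene need not have fallen. At the brightest probe set 13 genes fell, against 30 named genes over all probe sets. H1f10, a linker histone, was the brightest, with 9.87, 9.14 and 9.49 in leptotene/zygotene cells, against 10.73, 10.96 and 11.02 in pre-leptotene cells, a change of -1.41 ± 0.34 (SE, adjusted p = 0.0402). Spred2, an inhibitor of Ras-ERK signalling, had 5.96, 5.12 and 5.71 in leptotene/zygotene cells, against 7.16, 6.93 and 7.17 in pre-leptotene cells, a change of -1.49 ± 0.33 (SE, adjusted p = 0.0286). Rcn2, a calcium-binding protein of the endoplasmic reticulum, had a change of -1.71, and Slc20a1, a phosphate transporter, of -1.87. With array project as a fixed block Rcn2, Senp7 and Mtss1 were no longer called (adjusted p = 0.0969, 0.0742 and 0.0623). The other named falls were Sp4 (-1.84), a transcription factor, Xiap (-1.77), an inhibitor of caspases, Azin2 (-1.57), of polyamine control, Clcn7 (-1.34), a lysosomal chloride transporter, Senp7 (-1.14), a SUMO protease, Rab11fip1 (-1.13), of endosome recycling, Tmco3 (-1.12), Mtss1 (-1.39) and 6430548M08Rik (-1.44). Odc1, which starts polyamine synthesis, had a difference of 0.53 ± 0.21 (SE, adjusted p = 0.264).

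The X chromosome, which is silenced later in meiosis, had no rise among the 457 probe sets. By 1 probe set per gene, 0 of 331 X-linked genes rose or fell, against 1 rise and 2 falls with the replicate block and 3 falls with a floor at log2 5, with a median change of -0.14, against 0.02 over 9982 autosomal genes, of which 326 rose and 13 fell. Another probe set of the X-linked gene Xiap did fall, and Prdx4, an X-linked peroxiredoxin, had a difference of -0.30 ± 0.35 (SE, adjusted p = 0.876).

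Genes of earlier germ cells and of somatic cells were measured in the same arrays. Of 25 tested spermatogonial genes 0 were called, with a median change of 0.28. Id4, a marker of undifferentiated spermatogonia, had 8.56, 10.20 and 9.37 in leptotene/zygotene cells, against 6.41, 7.38 and 7.90 in pre-leptotene cells, a difference of 2.15 ± 0.58 (SE, adjusted p = 0.0624, and 0.015 with the replicate block). Its mean was 7.62 in spermatogonia and 12.13 in mid-pachytene cells, so in these data Id4 was higher in later spermatocytes than in spermatogonia. Of 27 tested piRNA and germ granule genes Piwil1 rose (3.70%, against 3.16% of all genes). In this list 23 were higher in leptotene/zygotene cells, against 5392 of all 10344, and the replicate block gave 3 rises. Without overlap, 8 of the 27 were higher (29.6%, against 13.0% of all genes) and 0 were lower (against 8.69%).

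Of the Leydig cell markers 4 of 11 were tested and 1 rose (25.0%, against 3.16% of all genes). This was Cyp17a1, the steroid 17-hydroxylase, with 7.59, 7.38 and 7.57 in leptotene/zygotene cells, against 2.22, 4.29 and 5.28 in pre-leptotene cells (3.58 ± 0.73 SE, adjusted p = 0.021). Star, the cholesterol carrier that defines steroid-producing cells, had a difference of -0.01, and the mean level of the list was 7.66, 7.32 and 7.59 in leptotene/zygotene replicates 1 to 3, against 5.71, 6.65 and 6.83 in pre-leptotene replicates 1 to 3. Of the macrophage and leukocyte markers 6 of 22 were tested and 0 were called. Their mean was 5.95, 4.21 and 4.95 in leptotene/zygotene replicates 1 to 3, against 8.03, 5.39 and 4.66 in pre-leptotene replicates 1 to 3, so pre-leptotene replicate 1 stood apart, led by H2-Aa at 10.71 and Cd74 at 10.36. Of the Sertoli cell markers 9 of 19 were tested, with a median change of 0.84, and of the peritubular and endothelial markers 7 of 17, with a median of 0.29, and 0 of either were called. None of the 7 red blood cell markers passed the filter, and of 19 dissociation stress genes and 27 ribosomal protein genes 0 were called. The part of these markers in the results was not tested.

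The genes that rose were higher still in the later fractions. In order of development, the median over the 457 risen probe sets stood at 6.25 for spermatogonia, then 5.37 for the pre-leptotene fraction, 7.79 for the leptotene/zygotene fraction, 9.70 in early-pachytene, 10.43 in mid-pachytene, 11.35 in late-pachytene and 11.50 in diplotene cells, and 11.38 in round spermatids. The radial spoke, central pair and tektin list had means of 7.07 for spermatogonia, 6.17 for the pre-leptotene fraction, 8.39 for leptotene/zygotene and 10.65 for mid-pachytene cells, and 11.94 in round spermatids. The dynein list was at 6.30 for spermatogonia, 5.69 for the pre-leptotene fraction, 7.47 for leptotene/zygotene and 9.69 for mid-pachytene cells. The replication list ran the other way, at 10.77 for spermatogonia, 10.70 for the pre-leptotene fraction, 10.45 for leptotene/zygotene and 9.47 for mid-pachytene cells, and 7.83 in round spermatids. These levels are given as values with no test.

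**Figure D4:**
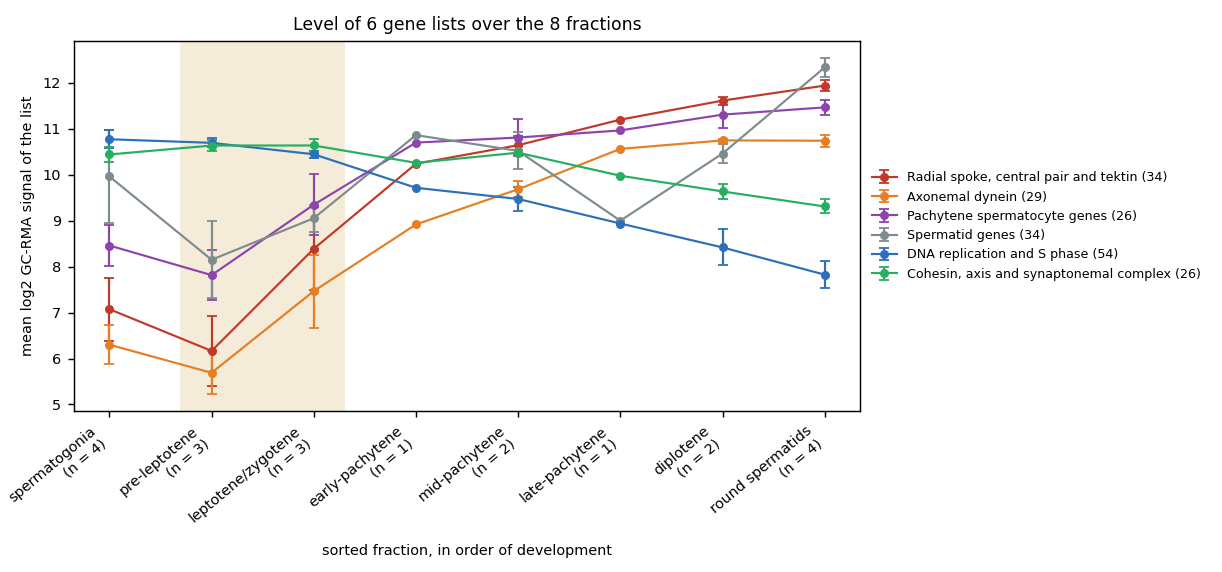
Mean log2 GC-RMA signal (vertical axis) of 6 gene lists in the 8 sorted fractions in order of development, with error bars of SD over arrays where a fraction has more than 1 array, the number of genes per list in the legend and the pre-leptotene and leptotene/zygotene fractions shaded. The radial spoke and dynein lists climb from the pre-leptotene fraction onward, the replication list is at 10.45 in leptotene/zygotene cells and 7.83 in round spermatids, and the axis list is at 10.64 in both shaded fractions.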

How the data were processed

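Cells were dissociated from testes, stained with Hoechst and sorted, and RNA was hybridised to Affymetrix MOE430 2.0 arrays, 20 in all. The deposited values are linear intensity signals per probe set that the authors normalised with GC-RMA in GeneSpring. Which GC-RMA version was used is not given in these sources. No depth applies to arrays, and 3 arrays per fraction limit the precision. The median signal of the 6 arrays ran between 11.2 and 11.7 on this linear scale, before log2 was taken.

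Signals were taken to log2, and limma 3.58.1 in R 4.3.3 was fitted to all 20 arrays as 8 fractions (lmFit, eBayes, two-sided, Benjamini-Hochberg over 18782 probe sets with log2 of at least 5 in at least 2 of the 6 arrays). The shared spread had 12 residual and 3.62 prior degrees of freedom. Of 45037 probe sets 34945 carried 1 gene symbol, 932 several and 9160 none here, and only the first were named. Promoters came from RefSeq (GRCm38.p6). Tables were handled in Python 3.11.15.

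The named genes were the 15 largest rises and 15 largest falls by the change with a floor at log2 5, past 0.05 with and without that floor and with no overlap, every gene of the study's text that was tested, and at most 6 members per list. Dmc1, Stra8, Ccna1, Id4, Tk1, Mthfd1, Ccne1, Ccne2, E2f3, Gins3, Hydin, Pifo, Cfap45, Ttc30a2 and Morn4, and the markers H2-Aa, Cd74 and Star, were added after their values were seen. The 27 gene lists and the comparison were chosen with earlier results of these data known. The labels call the arrays biological replicates.

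The labels number the replicates. Deviations from the fraction means of same-numbered arrays correlated at 0.677, 0.332 and 0.490 for pairs 1 to 3, so the numbers were taken to pair the arrays. Array projects were found from equal signals in the study's supplementary dataset. A second numbering in its correlation table differs in the fractions with an array of project 8. There it gives the first replicate no project, and the later ones the projects that equal signals give 1 replicate earlier. Its replicate order may thus not be that of the labels, and each numbering was used as a block. The alternatives tried were other blocks, scalings, floors, filters and leaving out each array.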

Additional observations from a re-analysis of the deposited data

How the results depend on the processing

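The total of 502 calls became 0 when the 6 arrays were fitted alone, with or without the replicate block, and so did the calls among flagellar and centriolar, S-phase, meiotic, and pachytene and spermatid genes (36, 1, 2 and 11 as reported), with 2453 probe sets at an unadjusted p under 0.05 in limma without the block and 4430 with it. The replicate block over 18 arrays gave 1025 calls in total, 56 flagellar, 3 S-phase, 4 meiotic and 23 pachytene and spermatid. Pairing by number was checked only between the leptotene/zygotene and pre-leptotene arrays. By equal signals, replicate 1 was of project 2 in both of these fractions and in spermatogonia. In mid-pachytene cells, diplotene cells and round spermatids replicate 1 was of project 4. The replicate block over 18 arrays thus joined arrays of different projects, and its calls carry that limit. All 57 called genes named in the text stayed called with this block, which added calls in several lists. Array project as a fixed block gave 1077, 58, 2, 6 and 27 calls in this order, and as a random block 1441, 68, 4, 6 and 29. A second numbering of the projects, from the study's correlation table, may not follow the replicate order of the labels. As a block it gave 318 calls in total and 23 flagellar. Of the 57 genes, 22 lost the call with it, against 3 with the first numbering as a fixed block. With the second numbering the median change of nucleotide supply was 0.02 in place of -0.21. That of the G1/S regulators was -0.20 in place of -0.39. Leaving out 1 array gave 35 to 745 calls in total, 2 to 50 flagellar, 0 to 3 meiotic and 1 to 18 pachytene and spermatid. Without a filter there were 151 calls in total, 7 flagellar, 1 meiotic and 3 pachytene and spermatid, and a filter at log2 7 gave 272, 23 flagellar and 1 meiotic. Filtering on all 20 arrays and median centring each left 1 meiotic call, and a floor at log2 5 gave 3 S-phase calls. The cause of these shifts was not tested, other than that fewer arrays or more dim probe sets enter some fits.

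No called gene named in the text turned sign under any setting. Of the uncalled ones, Cetn2 (0.04) went to -0.12 with project as a fixed block, to -0.016 as a random block and to between -0.15 and 0.22 without 1 array. Akap4 (-0.08) went to 0.087 and 0.066 with these blocks and to between -0.36 and 0.17 without 1 array. Of the 57 called genes, 51 lost the call without leptotene/zygotene replicate 3, 47 with pre-leptotene replicate 1 left out, 42 without replicate 3 of that fraction and 42 with no filter. Signals under log2 5 are near background, so changes that start or end there are uncertain in size.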
